A study of Mus musculus with 26 samples.

Results

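Mitochondrial ribosomal protein genes were followed in NIH3T3, an established cell line of mouse embryonic fibroblasts, through heat, oxidative and osmotic stress. Members were all gene symbols that begin with Mrpl or Mrps followed by a number: 78 of the 20430 symbols in the deposited RNA tables, 49 of the large subunit and 29 of the small subunit by symbol, and the same 78 among the 19941 symbols of the footprint tables. RNA sequencing of poly(A)-selected mRNA covered 16 libraries in 8 groups, and ribosome profiling, which sequences the mRNA fragments that ribosomes cover, covered 10 libraries in 5 groups, with 2 libraries in each group. The heat experiment held cells at 44 °C for 2 h, cells at 42 °C for 8 h and a heat control. The other experiment held cells given H2O2 for 2 h or 7 h, cells given KCl for 2 h or 7 h, and one control that both agents shared; only this experiment had labelled footprint libraries. No group carried a genetic change by its label, all were the same line, and the sources used here give neither the doses of H2O2 and KCl nor the control temperature. The labels number the replicates but do not say that they were separate cultures, so p-values measure only the spread between these libraries, which may be technical.

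The mitochondrial ribosome translates the few mRNAs of the mitochondrial genome, all of which encode subunits of the respiratory chain and the ATP synthase. Its RNAs come from the mitochondrial genome, while its proteins are encoded in the nucleus, made by cytosolic ribosomes and imported. Proteins with bacterial counterparts, such as Mrps12 of the decoding centre or Mrpl12 of the stalk, stand beside proteins that only mitochondrial ribosomes have, such as Mrps34 and Mrpl55.

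Total expected counts ranged from 24441877 to 45244430 in RNA libraries and from 1460751 to 5168537 in footprint libraries, of which the members took 0.222% to 0.31% and 0.245% to 0.36%. The shallowest footprint library was replicate 1 of H2O2 at 2 h. All 78 members passed the filter on low counts in every fit. A single member had between 15 and 739 counts in a footprint library, with a median of 110. All 11 fibroblast markers had a median of at least 10 TPM (the deposited level per transcript length) over the RNA libraries. Of the markers of other cell types, 1 of 5 epithelial (Krt18) and 1 of 5 immune markers (Cd68) reached a median of 1 TPM, and none of 4 endothelial or 4 muscle markers did. In bulk RNA, fewer cells of a kind and less RNA per cell cannot be told apart.

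Promoter sequences were matched for 69 of the 78 members in a RefSeq table (assembly GRCm38.p6, the same assembly as the mm10 build that the submitters' processing notes name). The windows of 300 bases, 250 before and 50 after the start, were searched on both strands for short motifs of factors known to bind promoters of mitochondrial or ribosomal genes. The ETS core (CCGGAAG, bound by GABP and related factors) was in 26 of 69 members (37.7%), against 19.2% of the promoters of genes tested in the H2O2/KCl RNA and 12.9% of all protein-coding genes. The YY1 core AAGATGGC was in 12 members (17.4%), against 5.08% of tested genes, and in the 150 bases before the start in 2 (2.9%, against 1.4%). In that shorter window the ETS core was in 15 members (21.7%, against 12.4%). The NRF1 palindrome (GCGCA followed by its reverse complement) was in 3 members (4.35%, against 2.25%), the E-box CACGTG in 5 (7.25%, against 11.4%) and the CCAAT box in 27 (39.1%, against 42.9%). In windows of 300 bases, promoters of cytosolic ribosomal protein genes held the ETS core in 40.4%, the YY1 core in 10.5% and the NRF1 palindrome in 3.51%. For nuclear-encoded respiratory chain genes these shares were 24.2%, 13.6% and 7.58%. The ETS core and the NRF1 palindrome were thus not most frequent in the members. The ETS and YY1 cores can share the letters AAG where they abut. A match describes the sequence and is not evidence of binding.

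The sequences that follow show 2 of the NRF1 matches and 2 of the ETS matches. They also show the starts of a pair of neighbouring members and of the member with the largest rise. Only letters of the NRF1 and ETS matches are in capitals. The Mrps26 sequence also holds a CCAAT box in reverse complement (attgg), left in lower case. Each sequence runs 5′ to 3′ on the strand of its gene: Mrpl32 at chr13:14613038-14613187 (minus strand), Mrpl39 at chr16:84735245-84735394 (minus), Mrpl34 at chr8:71464776-71464925 (plus) and Mrps26 at chr2:130563607-130563756 (plus, with the ETS core in reverse complement), each the 150 bases before the start.
Mrpl32: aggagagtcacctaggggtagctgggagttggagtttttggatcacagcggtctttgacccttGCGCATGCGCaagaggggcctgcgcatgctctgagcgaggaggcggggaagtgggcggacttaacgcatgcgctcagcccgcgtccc
Mrpl39: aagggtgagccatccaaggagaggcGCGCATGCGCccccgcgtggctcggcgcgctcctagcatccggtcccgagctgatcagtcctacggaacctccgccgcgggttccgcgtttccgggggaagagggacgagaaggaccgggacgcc
Mrpl34: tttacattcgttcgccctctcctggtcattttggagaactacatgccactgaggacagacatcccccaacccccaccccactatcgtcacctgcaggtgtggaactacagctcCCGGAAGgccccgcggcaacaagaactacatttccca
Mrps26: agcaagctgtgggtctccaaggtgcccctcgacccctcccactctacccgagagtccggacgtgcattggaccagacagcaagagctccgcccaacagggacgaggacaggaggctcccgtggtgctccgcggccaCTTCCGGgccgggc
Mrps11 and Mrpl46 lie head to head on chromosome 7, with 41 bases between their transcribed parts (chr7:78783090-78783130, plus strand, the strand of Mrps11) and none of the motifs in them.
Mrps11 and Mrpl46: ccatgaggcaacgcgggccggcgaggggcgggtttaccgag
Mrps6 starts inside the span of Slc5a3 on the same strand of chromosome 16, and the 136 bases before the Slc5a3 start (chr16:92058186-92058321) held none of the motifs.
Mrps6: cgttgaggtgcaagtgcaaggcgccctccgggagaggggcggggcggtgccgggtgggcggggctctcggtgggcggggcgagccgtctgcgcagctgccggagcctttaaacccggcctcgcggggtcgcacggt
Of the 69 members, 24 (34.8%) had another gene starting on the opposite strand within 1000 bases, against 12.7% of the genes tested. The pyrimidine-rich start typical of cytosolic ribosomal protein genes was in 0 of 69 members and in 14 of 57 cytosolic ribosomal protein genes with an entry. It was in 2.91% of the genes tested and in 6.06% of the nuclear-encoded respiratory chain genes, so its absence from the members lies near the share over all genes.

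In the H2O2/KCl control the members had a median of 72.5 TPM, from 2.13 TPM for Mrpl58 to 251 TPM for Mrps21, and 21 members reached 100 TPM. Large and small subunit members had medians of 74.2 and 69.3 TPM. Mrps21, the counterpart of a late-joining bacterial small subunit protein, was at 242 and 260 TPM in the 2 control libraries, Mrpl20 at 229 and 234, Mrpl33 at 204 and 205, Mrpl13 at 199 and 183, and Mrpl18 at 188 and 191. Over both controls together the fifth highest was Mrpl42, at 186 and 176 TPM in this control. At the low end, Mrps25 was at 11.3 and 12.0 TPM and Mrpl19 at 14.2 and 13.3. Mrpl58 has its own limit: this gene, whose product is also known as ICT1 and frees peptides from stalled mitochondrial ribosomes, appears in the tables under its current and its older symbol, and the row named Mrpl58 held a mean of only 33.4 counts against 682 under Ict1. Its changes are therefore given for the 2 rows added together, while counts of called members use the row named Mrpl58 alone. With the rows added, counts in one direction in RNA moved by at most 2 members.

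The ratio of footprint TPM to RNA TPM in the control had a median of 0.882 over the members, with a middle spread (quartiles) of 0.709 to 1.18, against 0.639 (0.401 to 0.999) over 10472 genes. Cytosolic ribosomal proteins had a median of 1.17 and nuclear-encoded respiratory chain genes 0.932. Members differed widely on this scale. The ratio was 8.64 and 9.71 for Mrpl35 in the 2 control replicates and 6.82 and 9.04 for Mrpl17. It was 0.295 and 0.278 for Mrps15, 0.26 and 0.33 for Mrpl18 and 0.351 and 0.307 for Mrpl37. The size of these ratios depends on the scale. As CPM (counts scaled to library size by TMM, without transcript length), Mrpl17 had 51.2 and 52.0 in control RNA and 52.3 and 74.7 in control footprints. Mrpl35 had 26.2 and 26.05 against 67.5 and 79.96, and Mrps15 43.7 and 42.6 against 23.7 and 23.1. The part of the lengths used for TPM in these ratios was not tested.

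**Figure D1:**
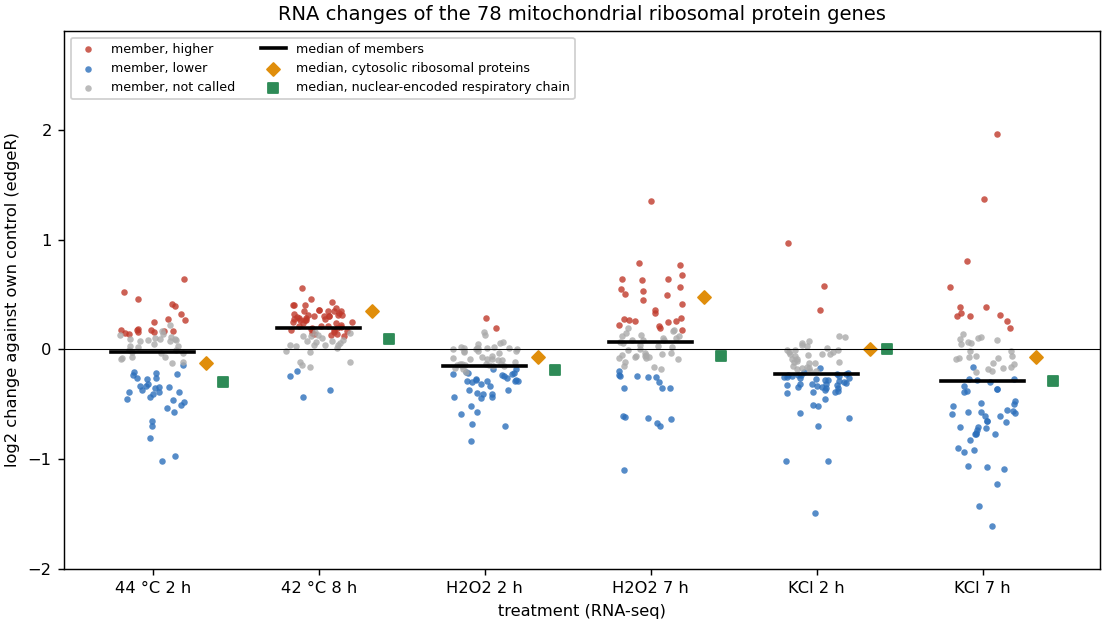
RNA change (log2, against each treatment's own control) of the 78 members, 1 point per gene coloured by its call in edgeR's quasi-likelihood test, with the members' median as a black bar and the medians of cytosolic ribosomal protein and nuclear-encoded respiratory chain genes as symbols. The members' median lay above 0 at 42 °C (0.20) and lowest after 7 h of KCl (-0.29), where Mrps6 and Mrpl45 stood at 1.96 and 1.37.

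At 44 °C for 2 h the members split: 19 were higher and 31 lower than in the heat control (edgeR's quasi-likelihood test, adjusted p under 0.05 over all genes), and their median log2 change was -0.03, against 0.00 over all genes. Of all 12747 genes tested, 71% were called in this comparison, 35.4% higher and 35.7% lower, so a call by itself sets no member apart. Large subunit members were called higher in 10 cases and lower in 20, small subunit members in 9 and 11. The largest falls among single rows were of Mrps28, Mrpl54, Mrpl23 and Mrpl33, with Mrpl58 between the last 2 of these when its rows are added (-0.73), and the largest rises of Mrps31, Mrpl49, Mrpl38 and Mrps12. On log2(TPM + 1) values tested with limma the split was 27 higher and 29 lower, and without control replicate 1 the counts were 11 and 31.

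Mrps28, a small subunit protein, had 12.4 and 13.1 CPM (counts scaled to library size by TMM) in the heat controls and 6.33 and 6.23 at 44 °C. The groups were far apart, and its RNA fell by 1.02 on the log2 scale (SE 0.08, adjusted p = 7.2e-08). Mrpl54, a large subunit protein without a bacterial counterpart, went from 36.0 and 36.3 CPM to 17.6 and 19.3, a log2 change of -0.97 (SE 0.06, adjusted p = 6.2e-09). Mrpl33, counterpart of a small bacterial protein, was at 35.8 CPM in both controls and at 20.6 and 23.6 at 44 °C (log2 change -0.70, SE 0.07). For each of these members both libraries at 44 °C lay below both controls. Mrpl23, a protein of the tunnel exit, had 15.2 and 16.7 CPM in the controls and 9.02 and 9.24 at 44 °C (log2 change -0.81, SE 0.08). In the other direction, Mrps31 rose from 18.8 and 19.0 CPM to 28.4 and 30.5 (log2 change 0.64, SE 0.07, adjusted p = 1.0e-06). Mrpl49 rose from 50.9 and 56.3 CPM to 75.6 and 77.9 (log2 change 0.52, SE 0.05), Mrpl38 by 0.46 and Mrps12 by 0.42 on the log2 scale.

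At 42 °C for 8 h the calls leaned to one side on the scale of counts: 51 members were higher and 4 lower, with a median log2 change of 0.20 against -0.01 over all genes, of which 63.6% were called (31.7% higher and 31.9% lower). All 22 called small subunit members and 29 of 33 called large subunit members were higher. Without replicate 1 at 42 °C the counts were 33 and 5. The lean depended on the scale. On log2(TPM + 1) values limma called 17 members higher and 15 lower, with a median of 0.02, while the median over all genes moved to -0.16; relative to all genes, the members' median was above 0 on either scale. The largest rise was of Mrpl12, the stalk protein that also binds the mitochondrial RNA polymerase. It had 53.5 and 52.8 CPM in the controls and 81.0 and 75.4 at 42 °C, a log2 change of 0.56 (SE 0.05, adjusted p = 2.8e-07). Mrpl19 rose by 0.46, Mrpl20 by 0.43 and Mrps7, counterpart of a protein that starts assembly of the bacterial small subunit head, by 0.41. The 4 members called lower were Mrpl44 (-0.43, SE 0.08, adjusted p = 0.00025), Mrpl50 (-0.37), Mrpl16 (-0.24) and Mrpl18 (-0.19). Mrpl44, a protein with a fold like RNase III, had 13.9 and 15.2 CPM in the controls and 10.8 and 10.7 at 42 °C. The call of Mrpl18 was lost without replicate 2 of either group (log2 changes of -0.15 and -0.13).

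The heat treatments were compared with each other directly, since both share the heat control; they differ in temperature and in time, whose parts cannot be told apart. RNA of 46 members was higher at 42 °C for 8 h than at 44 °C for 2 h and RNA of 7 was lower, with 75.1% of all genes called (37.9% higher, 37.2% lower) and a median of 0.24 for the members; on log2(TPM + 1) values the counts were 28 and 29. Mrps28 differed most, by 1.33 (SE 0.08, adjusted p = 3.1e-09), with 15.96 and 15.62 CPM at 42 °C. Mrpl54 differed by 1.13, Mrpl33 by 1.00 and Mrps10 by 0.86. The largest differences the other way were of Mrps31 (-0.62), Mrpl50 (-0.54), Mrpl44 (-0.53) and Mrpl49 (-0.38). For 20 members RNA fell at 44 °C and rose at 42 °C, each by a called change, with the difference itself also called. No such count was made over all genes. Mrpl20, one of the 20, was at 48.9 and 50.9 CPM in the controls, 38.7 and 38.2 at 44 °C and 68.3 and 66.0 at 42 °C.

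**Figure D2:**
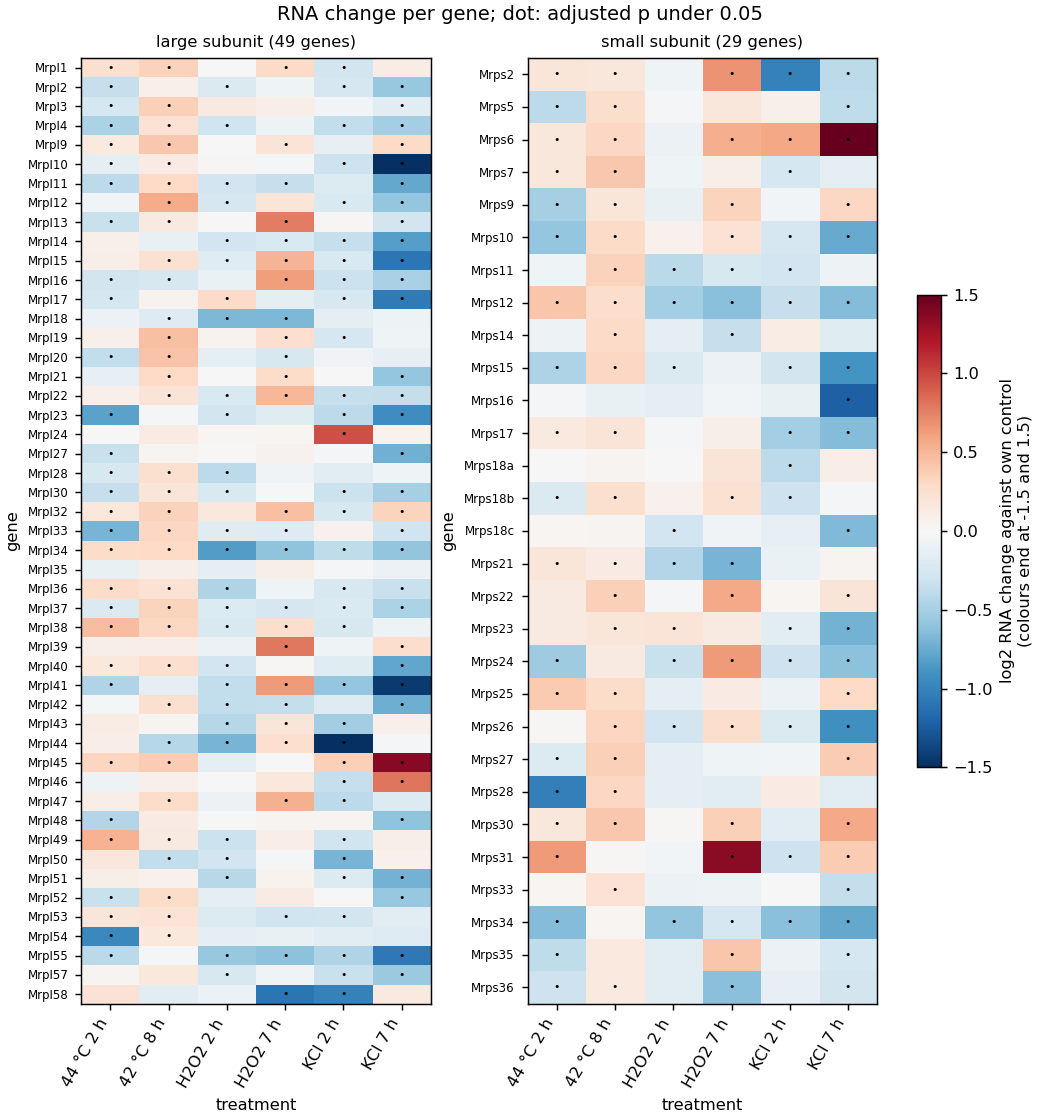
RNA change (log2 against own control, colour scale ending at -1.5 and 1.5) of each member in the 6 treatments, large subunit genes left and small subunit genes right, with a dot where edgeR's adjusted p was under 0.05. Of the 78 genes, 54 have dots in both directions and 1, Mrpl35, has none. The same count over all genes was not made.

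After 2 h of H2O2 most called members were lower: 2 rose and 34 fell, with a median of -0.15, against 53.9% of all genes called (27.3% higher, 26.5% lower). Of the large subunit 26 fell and 1 rose, and of the small subunit 8 fell and 1 rose. Mrpl34, a very small large subunit protein of the bacterial type, had 27.4 and 28.0 CPM in the control and 16.1 and 15.0 after H2O2, a fall of 0.84 (SE 0.12, adjusted p = 3.6e-05). Mrpl44 fell from 14.0 and 13.7 CPM to 8.88 and 8.19 (log2 change -0.70, SE 0.09), and Mrpl18 from 74.6 and 74.95 to 46.7 and 46.9 (-0.68, SE 0.06, adjusted p = 6.0e-07). For all 3 the treated libraries lay below the controls. Mrps34 fell by 0.59. The 2 rises were small: Mrpl17 went from 51.2 and 52.0 CPM to 61.8 and 63.8 (0.28, SE 0.07), and Mrps23 changed by 0.19, a call that was lost when replicate 1 of H2O2 at 2 h was left out (0.10, adjusted p = 0.36).

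After 7 h of H2O2 the calls went both ways, with 26 members higher and 17 lower and a median of 0.06 against 0.08 over all genes, of which 70.5% were called (39.4% higher, 31.1% lower). The TPM scale gave 20 higher and 24 lower, and the split was 16 and 21 without replicate 1 of that group and 25 and 10 without replicate 2. Mrps31 rose most: 20.7 and 19.97 CPM in the control, 20.1 and 19.5 at 2 h and 48.7 and 55.4 at 7 h, a log2 change at 7 h of 1.35 (SE 0.08, adjusted p = 9.9e-10). Both libraries at 7 h stood above every other library of that experiment for this gene. Mrpl39 rose from 38.9 and 39.5 CPM to 71.2 and 63.9 (0.79, SE 0.08), Mrpl13, the counterpart of an early-binding bacterial protein, from 63.8 and 57.9 to 102 and 105 (0.77, SE 0.07), and Mrps2 from 47.9 and 44.3 to 76.9 and 70.6 (0.68). The largest falls were of Mrps21, from 36.6 and 38.9 CPM to 23.1 and 23.5 (-0.70, SE 0.08, adjusted p = 2.8e-06), Mrpl18 (-0.67), Mrps12 (-0.63) and Mrps36 (-0.63). Mrps36 is a subunit of the oxoglutarate dehydrogenase complex despite its name.

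Between the times of H2O2, 39 members were higher at 7 h than at 2 h and 4 lower (73.4% of all genes called, 37.3% higher and 36.1% lower; members' median 0.19). Mrps31 (1.39), Mrpl41 (1.01), Mrps24 (0.97) and Mrpl44 (0.95) differed most. Mrpl41 was at 15.2 and 15.8 CPM in the control, fell to 11.9 and 12.1 at 2 h (-0.37, SE 0.08) and stood at 24.9 and 23.1 at 7 h (0.64, SE 0.08), so its libraries lay below the control at the first time and above it at the second. The same order held for 8 members with calls in both directions and a called difference, among them Mrpl15, Mrpl22 and Mrps26. A matching count over all genes was not made. The 4 lower members were Mrps36 (-0.45), Mrpl17 (-0.43), Mrps21 (-0.26, lost without replicate 2 of 2 h or replicate 1 of 7 h) and the row named Mrpl58 alone. With its rows added Mrpl58 was 0.25 higher at 7 h (adjusted p = 0.011), and the counts became 40 and 3.

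After 2 h of KCl 3 members rose and 44 fell, with a median of -0.23, against 54.2% of all genes called (27.2% higher, 27% lower). The large subunit had 30 falls and 2 rises, the small subunit 14 and 1. Without replicate 2 of KCl at 2 h 28 members fell. Mrpl44 fell most, from 14.0 and 13.7 CPM to 5.23 and 4.61, a log2 change of -1.49 (SE 0.11, adjusted p = 3.7e-08). The spans of Mrpl44 and Wdfy1 share 126 bases. RNA of Wdfy1 changed by 0.12 (edgeR, adjusted p = 0.16) in the same comparison. Mrps2, counterpart of a bacterial protein that joins the small subunit late, fell from 47.9 and 44.3 CPM to 24.1 and 21.5 (-1.02, SE 0.08, adjusted p = 2.1e-07). Mrpl50 fell by 0.70 and Mrps34 by 0.63 on the log2 scale, and for all 4 genes the treated libraries lay below the controls. The 3 rises were of Mrpl24 (0.97), Mrps6 (0.58) and Mrpl45 (0.36).

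After 7 h of KCl 12 members rose and 43 fell, and their median was -0.29 against 0.04 over all genes. Of all genes 68.8% were called, 37.2% higher and 31.6% lower. Calls of members with a change of at least 0.5 on the log2 scale numbered 34. The share of all genes at that size is not given here, so this count describes the members alone. Mrps6 had 49.3 and 48.2 CPM in the control, 73.6 and 72.2 at 2 h and 187 and 194 at 7 h, a log2 change at 7 h of 1.96 (SE 0.06, adjusted p = 5.0e-12). Each time stood clear of the one before. Mrpl45, which is thought to hold the mitochondrial ribosome to the inner membrane, had 67.1 and 62.9 CPM in the control, 86.5 and 80.4 at 2 h and 162 and 174 at 7 h (1.37, SE 0.07, adjusted p = 7.0e-10). Mrpl46 had 16.2 and 15.7 CPM in the control, fell to 13.6 and 11.6 at 2 h (-0.34, SE 0.09) and rose to 27.5 and 28.2 at 7 h (0.80, SE 0.08), which placed it on opposite sides of the control. Its head-to-head neighbour Mrps11, whose start lies 42 bases away in the sequence shown above, changed by -0.29 at 2 h and by -0.08 at 7 h (adjusted p = 0.48). Mrps30, which sits in the large subunit despite its name, rose from 30.1 and 29.4 CPM to 44.3 and 44.1 at 7 h (0.57, SE 0.07).

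Mrps6 (chr16:92058336-92112227) shares 29138 bases of its span with Slc5a3 (chr16:92058322-92087473), the myo-inositol transporter that cells raise in high salt. RNA of Slc5a3 rose by 1.97 at 2 h of KCl (SE 0.12) and 2.32 at 7 h (SE 0.12, adjusted p = 1.7e-09), from 56.2 and 60.2 CPM in the control to 279 and 301 at 7 h. In the heat experiment Slc5a3 rose by 1.83 at 44 °C and 0.88 at 42 °C, and Mrps6 by 0.18 and 0.31. The sources used here do not say how reads of the overlap were shared between these genes. The part of this sharing in the Mrps6 values was not tested.

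The falls at 7 h of KCl were led by Mrpl10, Mrpl41, Mrps16 and Mrpl15. Mrpl10, which anchors the Mrpl12 stalk, had 61.5 and 58.6 CPM in the control, 48.5 and 48.3 at 2 h and 20.2 and 19.0 at 7 h (log2 change at 7 h -1.61, SE 0.07, adjusted p = 2.7e-10). Its stalk partner Mrpl12 fell by 0.58. Mrpl41 went from 15.2 and 15.8 CPM to 10.7 and 10.01 at 2 h and 5.65 and 5.83 at 7 h (-1.43, SE 0.09, adjusted p = 1.1e-08). Mrps16, counterpart of a small protein of the bacterial small subunit body, had 34.2 and 31.97 CPM in the control and 14.6 and 13.7 at 7 h (-1.23, SE 0.10), and Mrpl15 had 33.0 and 30.5 against 15.4 and 14.4 (-1.09, SE 0.08). In each of these genes both libraries at 7 h lay below all control libraries. Mrpl55 fell by 1.07 and Mrpl17, from 51.2 and 52.0 CPM to 25.5 and 23.8, also by 1.07.

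**Figure D3:**
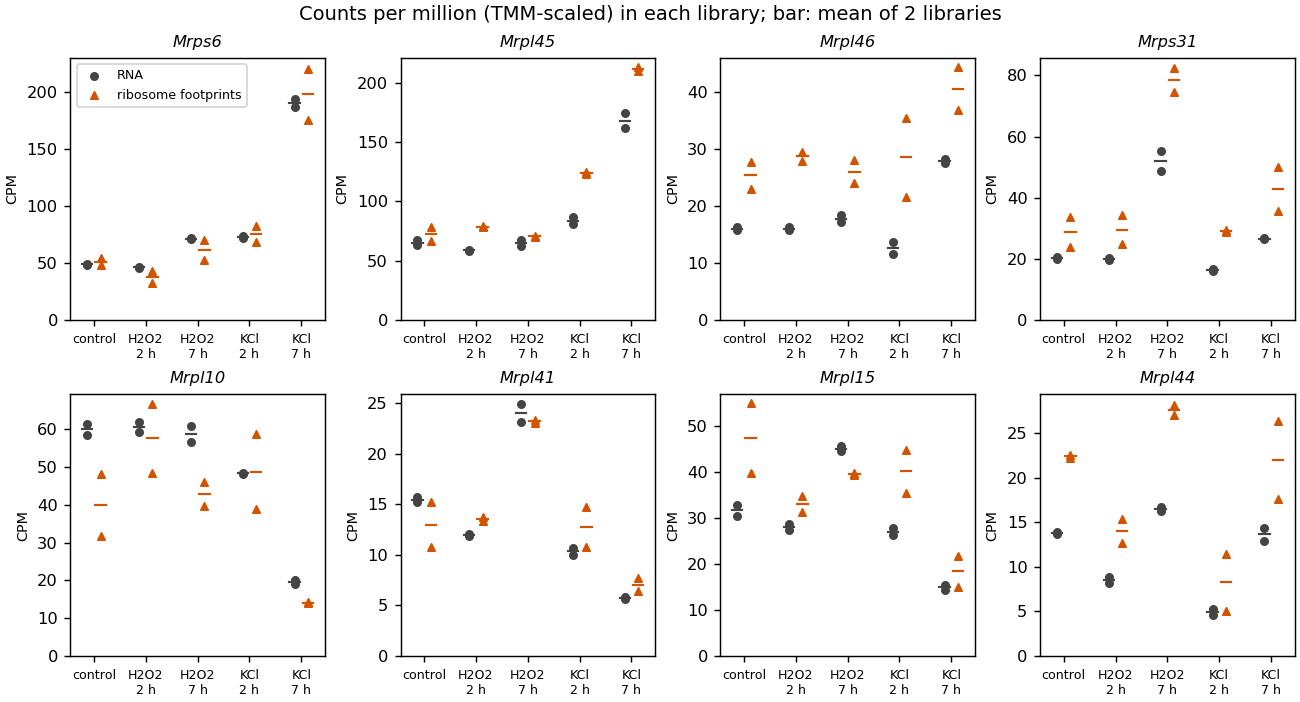
CPM values (TMM-scaled counts, linear axis from 0) of 8 members in each RNA library (circles) and footprint library (triangles) of the H2O2/KCl experiment, with the mean of the 2 libraries as a bar. Mrps6 and Mrpl45 are highest after 7 h of KCl in both kinds of library, Mrpl10, Mrpl41 and Mrpl15 are lowest there, Mrps31 is highest after 7 h of H2O2, and Mrpl44 is lowest after 2 h of KCl.

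From 2 h to 7 h of KCl 20 members were higher and 35 lower (68.8% of all genes called, 35.1% higher and 33.7% lower; members' median -0.15). Mrpl44 (1.47), Mrps6 (1.38), Mrpl46 (1.15) and Mrpl45 (1.01) were higher, and Mrpl10 (-1.30), Mrps16 (-1.11), Mrpl24 (-0.91) and Mrpl15 (-0.86) lower. Mrpl44 was back at 14.4 and 12.9 CPM at 7 h, a difference of -0.02 from the control (SE 0.09, adjusted p = 0.87). Mrpl32, Mrpl46 and Mrps31 were the members lower than the control at 2 h and higher at 7 h.

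The agents were compared directly at matched times, with the level of the shared control left aside. At 2 h, 18 members were higher with H2O2 and 11 with KCl (51.3% of all genes called, 27% higher with H2O2 and 24.2% lower; members' median 0.01); on log2(TPM + 1) values the counts were 25 and 5, without replicate 1 of H2O2 14 and 7, and without replicate 1 of KCl 15 and 5. Mrps2 (0.95), Mrpl44 (0.80), Mrpl17 (0.52) and Mrps17 (0.49) were higher with H2O2, and Mrpl24 (-0.95), Mrps6 (-0.66), Mrpl18 (-0.53) and Mrpl45 (-0.51) with KCl. At 7 h the difference was wider: 48 members were higher with H2O2 and 10 with KCl, with a median of 0.35 and 78.4% of all genes called (41% higher with H2O2, 37.4% lower). Without replicate 1 of KCl the counts were 47 and 6. Mrpl41 differed by 2.07 (SE 0.09, adjusted p = 6.0e-11), Mrpl15 by 1.60 (SE 0.08, adjusted p = 1.4e-10), Mrpl10 by 1.59 and Mrps24 by 1.26. Mrps6 (-1.41), Mrpl45 (-1.37), Mrps21 (-0.74) and Mrpl46 (-0.65) were higher with KCl. For 11 members RNA was above the control with H2O2 and below it with KCl at 7 h, each by a called change. A matching count over all genes was not made.

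Members chosen for their role were followed through all 6 comparisons. Mrps12, of the decoding centre, was called in all 6 comparisons with a control: higher at 44 °C (0.42) and 42 °C (0.27) and lower with H2O2 (-0.51 at 2 h, -0.63 at 7 h) and KCl (-0.35 and -0.65). Mrpl11, of the region that activates translation factors, was lower at 44 °C (-0.39), higher at 42 °C (0.30) and lower at 7 h of H2O2 (-0.35) and of KCl (-0.77). The paralogues Mrps18a, Mrps18b and Mrps18c, which the ribosome holds at different places, separated: Mrps18a was called only at 2 h of KCl (-0.39), Mrps18b fell at 44 °C (-0.22) and 2 h of KCl (-0.31) and rose at 42 °C (0.24) and 7 h of H2O2 (0.23), and Mrps18c fell at 2 h of H2O2 (-0.29) and 7 h of KCl (-0.66). Mrps35 fell at 44 °C (-0.39) and at 7 h of KCl (-0.27) and rose at 7 h of H2O2 (0.42), while Mrps14 rose at 42 °C (0.29) and fell at 7 h of H2O2 (-0.35). Mrpl58, with both of its rows added, fell at 44 °C (-0.73), at 2 h of H2O2 (-0.27) and at 2 h and 7 h of KCl (-0.30 and -0.64).

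Over the 6 comparisons with a control, of which 4 share one control and 2 the other, 54 members were called both higher and lower, 15 only lower and 8 only higher. The same counts over all genes were not made. Each of these comparisons called between 53.9% and 71% of all genes, so the counts describe the members and do not set them apart. Mrpl34, Mrpl37 and Mrps12 were called in all 6. Mrpl37, a mitochondria-specific protein, was lower in every comparison except 42 °C (0.33), with falls of 0.21 to 0.47. Mrpl55 and Mrps34 were lower in 5 and not called at 42 °C; Mrpl55 ran from 11.7 and 13.2 CPM in the H2O2/KCl control to 5.90 and 5.92 at 7 h of KCl, and Mrps34 from 24.4 and 28.2 to 16.7 and 14.0. Mrps6 was higher in 5, the exception being 2 h of H2O2 (-0.08, adjusted p = 0.22).

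Ribosome footprints of the members changed in fewer cases than RNA, in much shallower libraries. After 2 h of H2O2 no member was called by edgeR, DESeq2 or limma, and 6 had an unadjusted p under 0.05 in edgeR; of all 10545 genes 1.91% were called (1.14% higher, 0.768% lower). After 7 h of H2O2 4 members rose and 2 fell (27.7% of all genes called, 17.2% higher and 10.6% lower). Mrps31 had 23.7 and 33.8 CPM of footprints in the control and 74.6 and 82.4 at 7 h, a log2 change of 1.45 (SE 0.25, adjusted p = 0.00074), beside 1.35 in RNA. Mrpl41 (0.84), Mrpl1 (0.73) and Mrpl39 (0.70) rose, and Mrpl55 (-0.96) and Mrps16 (-0.59, adjusted p = 0.0499) fell; the calls of Mrpl1, Mrpl41, Mrpl55 and Mrps16 were each lost when any of the 4 libraries was left out. Any library left out gave 1 or 2 rises and 0 falls, and TPM values gave 5 and 1. After 2 h of KCl Mrpl45 rose, from 78.3 and 66.8 CPM to 123.1 and 124.5 (0.77, SE 0.17, adjusted p = 0.018), and Mrpl44 fell, from 22.3 and 22.5 to 5.03 and 11.5 (-1.44, SE 0.34, adjusted p = 0.025), with 6.86% of all genes called (1.79% higher, 5.06% lower). The call of Mrpl45 was lost with any of the 4 libraries left out (log2 changes 0.66 to 0.94), and that of Mrpl44 with 3 of them; without replicate 1 of KCl at 2 h its log2 change was -0.96 (adjusted p = 0.21).

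After 7 h of KCl 4 members rose and 9 fell in footprints, with a median over the members of -0.28 against -0.02 over all genes, of which 20.4% were called (10.5% higher, 9.83% lower); TPM values gave 2 and 11. Leaving out any 1 of the 4 libraries left 2 rises, with 4 falls without control replicate 2, 5 without KCl replicate 1 and 7 without either of the others. Mrps6 footprints went from 54.3 and 48.1 CPM to 221 and 176 (1.95, SE 0.22, adjusted p = 0.00012), and Mrpl45 from 78.3 and 66.8 to 213 and 210 (1.54, SE 0.17, adjusted p = 0.00011). Mrps30 (0.82) and Mrps9 (0.70) rose as well, and the call of Mrps30 was lost with any 1 of the 4 libraries left out. Footprints of Slc5a3 rose by 1.504 (SE 0.21) in the same libraries. Mrpl10 footprints fell from 31.8 and 48.1 CPM to 14.3 and 13.9 (-1.499, SE 0.29, adjusted p = 0.0042), Mrpl15 from 39.9 and 55.0 to 15.0 and 21.8 (-1.35, SE 0.25), and Mrps16 from 49.9 and 52.8 to 19.9 and 22.7 (-1.26, SE 0.22). Mrpl17 (-1.32), Mrpl24 (-1.28), Mrps23 (-1.16), Mrpl40 (-1.04), Mrps17 (-0.996) and Mrps26 (-0.93) were the others. The call of Mrpl17 was lost without control replicate 2 or KCl replicate 2 (-1.04 and -1.17). Mrpl41, whose RNA fell by 1.43, had a footprint log2 change of -0.87 (adjusted p = 0.063).

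**Figure D4:**
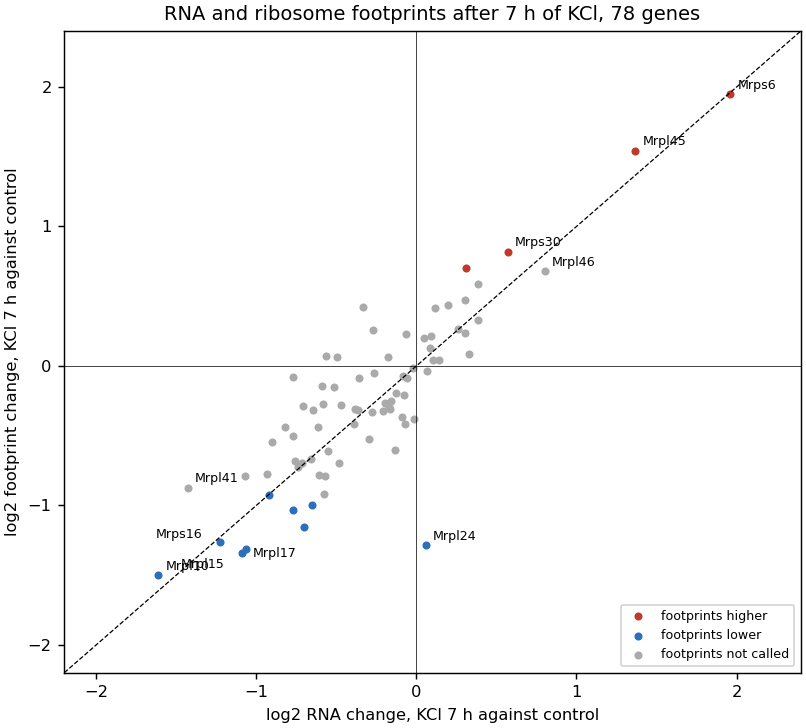
Footprint change against RNA change (both log2, 7 h of KCl against the shared control) for the 78 members, 1 point per gene coloured by the footprint call, with a dashed line where both are equal. Mrps6 (1.96 and 1.95) and Mrpl45 (1.37 and 1.54) lie near the line at the upper right, Mrpl10 (-1.61 and -1.499) near it at the lower left, and Mrpl24 (0.06 and -1.28) far below it.

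Translational efficiency, the footprint change beyond the RNA change of the same gene, was tested as an interaction over both kinds of library. After 2 h of H2O2 6 members rose and none fell, with 56 of 78 fitted values above 0 and a median of 0.22, against 5186 of 10480 and -0.01 over all genes; 11.4% of all genes were called (3.98% higher, 7.46% lower). After 2 h of KCl 4 rose and none fell, with 64 above 0 and a median of 0.29, against 5064 of 10480 and -0.02 (12.8% of all genes called, 3.58% higher and 9.18% lower). The 6 at H2O2 were Mrps34 (1.11, SE 0.35, adjusted p = 0.049), Mrpl36 (1.09), Mrpl53 (0.97), Mrpl22 (0.72), Mrpl2 (0.70) and Mrpl49 (0.58), and the 4 at KCl were Mrpl55 (0.96, SE 0.30, adjusted p = 0.040), Mrps17 (0.80), Mrpl14 (0.70) and Mrpl49 (0.60). Leaving out single libraries moved these counts to between 0 and 10 with H2O2 (10 without footprint replicate 2 of H2O2, 7 without footprint control replicate 2, 0 or 1 without any other) and to between 0 and 9 with KCl (9 without footprint replicate 1 of KCl, 8 with 1 fall without footprint control replicate 2, 4 without RNA replicate 1 of KCl, 0 or 1 without any other). Mrps34 footprints were 76.7 CPM in replicate 1 and 28.5 in replicate 2 of H2O2 at 2 h, against 29.6 and 30.2 in the control, and without replicate 1, the shallowest library, the value was 0.48 (adjusted p = 0.17). Left out in turn, 7 of 8 libraries ended the call of Mrps34, 5 each those of Mrpl36 and Mrpl53, 7 that of Mrpl55 and 6 each those of Mrps17 and Mrpl14. Limma with a weight per kind of library called none of the members at 2 h of either agent. Mrpl36 footprints were at 22.0 and 11.8 CPM against 8.07 and 10.2 in the control, and Mrpl53 footprints at 51.4 and 31.8 against 16.9 and 26.9; both are above the control in each library, with replicate 1 the higher.

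At 7 h of H2O2 Mrpl15 (-0.76, SE 0.20, adjusted p = 0.025) and Mrpl32 (-0.73, SE 0.20, adjusted p = 0.028) fell in translational efficiency, with 9.27% of all genes called (4.69% higher, 4.57% lower) and a median of -0.12 over the members against 0.06 over all genes. Footprints of Mrpl32 were 35.0 and 36.3 CPM in the control and 27.1 and 31.4 at 7 h, while its RNA was at a mean of 20.6 CPM ± 0.81 (SD, n = 2) and of 28.1 CPM ± 0.31 (SD, n = 2). Both calls were lost with 7 of the 8 libraries left out in turn, with log2 changes of -0.50 to -0.98 for Mrpl15 and -0.65 to -0.85 for Mrpl32. At 7 h of KCl 1 member fell, Mrpl24 (5.57% of all genes called, 1.69% higher and 3.88% lower). The 4 members whose RNA moved most were not called in efficiency there, at 0.01 for Mrps6 (SE 0.20), 0.15 for Mrpl10 (SE 0.29), 0.58 for Mrpl41 (SE 0.28, adjusted p = 0.24) and 0.20 for Mrpl45 (SE 0.15).

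Mrpl24 (chr3:87918131-87923450) is the member on which the study's own subject bears, transcription that runs past the end of a gene into the next one. Its upstream neighbour is Hdgf (chr3:87906090-87916132), a growth factor gene. In the authors' deposited table the read-in estimate from Hdgf into Mrpl24, a ratio whose formula the sources used here do not give, was 0.0258 and 0.0482 for the control. With H2O2 the pairs of libraries read 0.0305 and 0.0395 (2 h) and 0.00869 and 0.0184 (7 h), and with KCl 0.312 and 0.3 (2 h) and 0.751 and 0.764 (7 h). Each of the 4 KCl libraries thus lay above the other 6. For heat the pairs read 0.0326 and 0.0224 (control), 0.0422 and 0.0414 (42 °C) and 0.102 and 0.0994 (44 °C). The table calls read-in for this pair in 12 of the 16 RNA libraries.

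RNA of Mrpl24 had 43.0 and 38.4 CPM in the control, 79.9 and 79.7 at 2 h of KCl (log2 change 0.97, SE 0.07, adjusted p = 3.9e-08) and 40.9 and 44.1 at 7 h (0.06, SE 0.07, adjusted p = 0.48). On the TPM scale the same libraries read 98.1 and 86.0, 130 and 130, and 53.7 and 59.5, so that limma gave 0.50 at 2 h and a fall of 0.69 at 7 h (adjusted p = 1.4e-05); the value at 7 h thus turned from near 0 to lower with the scale. Footprints of Mrpl24 were 54.1 and 42.9 CPM in the control and 60.4 and 68.1 at 2 h, both above the control but not called (0.41, SE 0.24, adjusted p = 0.38). They stood at 14.3 and 24.96 CPM at 7 h, a called fall (-1.28, SE 0.26, adjusted p = 0.0045). The resulting translational efficiency of -1.30 at 7 h (SE 0.24, adjusted p = 0.0036) kept its call in every alternative run, from -0.99 to -1.80. RNA of Hdgf itself changed by 0.01 at 2 h and 0.09 at 7 h of KCl, neither called. Mrpl24 also shares 850 bases with Rrnad1 at its other end. The part of read-in in the Mrpl24 values was not tested.

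**Figure D5:**
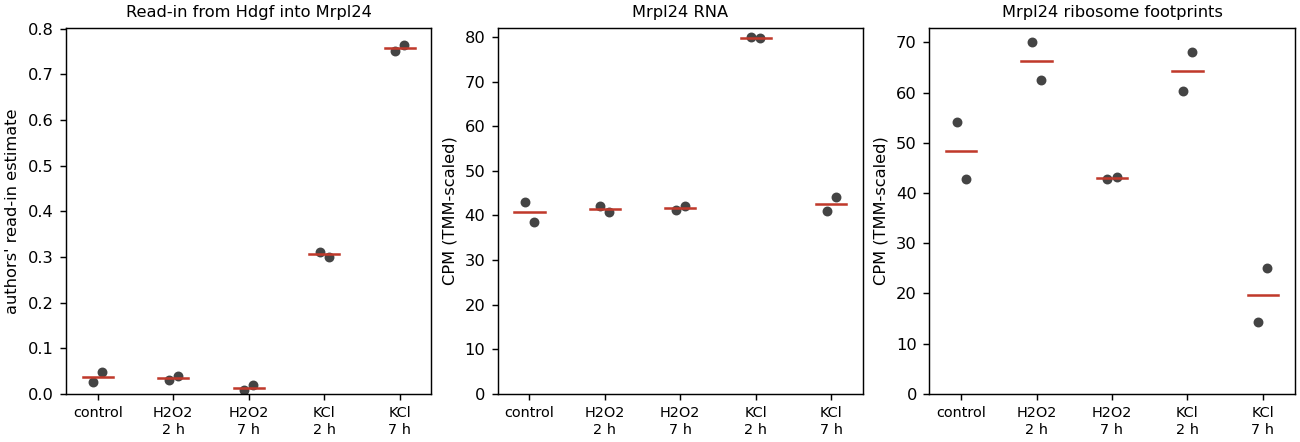
The authors' read-in estimate from Hdgf into Mrpl24 (left, a ratio), Mrpl24 RNA (middle, CPM) and Mrpl24 footprints (right, CPM) in each library of the H2O2/KCl experiment, with points for libraries and bars for the mean of 2. The estimate is highest after 7 h of KCl (0.751 and 0.764), where RNA is at 40.9 and 44.1 CPM and footprints at 14.3 and 24.96 CPM, the lowest of the 5 groups.

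Across the authors' deposited calls, 31 members stand as the downstream gene of a tabled pair, and 5 of these pairs (16.1%) had a read-in call in some library, against 5.4% of 6368 other pairs. Besides Hdgf into Mrpl24 these were Fbf1 into Mrpl38 (3 libraries) and, in 1 library each, Urgcp into Mrps24, Lrrc59 into Mrpl27 and Ptpra into Mrps26. As the upstream gene members stand in 55 pairs, of which 6 (10.9%) had a call, against 5.41% of others: Mrps34 into Nme3 (13 libraries), Mrps15 into Oscp1 (5), Mrps16 into Dnajc9 (3), and Mrps10 into Guca1b, Mrpl20 into Ccnl2 and Mrpl24 into Isg20l2 (2 each). All members passed the filter on low counts, while the other pairs were not matched to them by expression. The shares therefore do not compare like with like, and those of the members rest on few pairs.

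Other gene lists of mitochondrial and cytosolic gene expression give the setting of these changes. Cytosolic ribosomal protein genes (78) were called on one side more often than the members: 78 of 78 were higher at 42 °C (median 0.35; 53 on the TPM scale) and 77 at 7 h of H2O2 (median 0.47, against 0.06 for the members), while 4 were higher and 38 lower at 44 °C. At 7 h of KCl, where 43 members fell, 18 cytosolic ribosomal protein genes fell and 2 rose (median -0.07). In translational efficiency at 7 h of H2O2, 61 of 77 cytosolic ribosomal protein genes fell (median -1.09), against 2 of 78 members. Nuclear-encoded respiratory chain genes (81 tested) had 58 falls and 2 rises at 44 °C (median -0.30), 42 falls and no rise at 2 h of H2O2 (median -0.18), and 53 falls and 4 rises at 7 h of KCl (median -0.29). At 42 °C 26 of them were higher and 6 lower, but 4 and 36 on the TPM scale. The 13 mRNAs of the mitochondrial genome, which the mitochondrial ribosome translates, fell in 13 cases at 7 h of H2O2 (median -1.88) and rose in 10 at 7 h of KCl (median 0.38), the time at which most members fell; poly(A) selection sees only their polyadenylated part.

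The counts that follow stand beside these shares of all genes called in RNA: 71% at 44 °C and 63.6% at 42 °C. With H2O2 the shares were 53.9% at 2 h and 70.5% at 7 h, and with KCl 54.2% and 68.8%. Each direction alone took 26.5% to 39.4% of all genes, so the counts only describe these lists. The 5 mitochondrial ribosomal proteins named outside the series of symbols (Dap3, Ptcd3, Chchd1, Aurkaip1 and Gadd45gip1) had 4 rises at 42 °C and 3 falls each at 44 °C and 7 h of KCl. Of 26 assembly factors, 15 rose and 2 fell at 7 h of H2O2 (median 0.27) and 16 fell and 1 rose at 2 h of KCl (median -0.24), where the helicase Ddx28 fell by 2.61 (SE 0.15). Ddx28 also fell at 42 °C (-1.64, SE 0.10), and the assembly factor Tfb1m, an rRNA methyltransferase, fell by 1.45 (SE 0.19) at 7 h of KCl. Of 17 translation factors, 9 fell and 1 rose at 2 h of H2O2, with the initiation factor Mtif3 at -0.96 (SE 0.11), and 11 fell and 4 rose at 7 h of KCl. The release factor Mtrf1l rose by 1.09 at 44 °C (SE 0.07), where 8 translation factors rose and 5 fell. Of 17 mitochondrial aminoacyl-tRNA synthetases 11 fell and 3 rose at 7 h of KCl (median -0.33), with Rars2 at -1.76 (SE 0.10), and Pars2 fell by 3.32 (SE 0.15) at 2 h of KCl, while Nars2 rose by 1.71 (SE 0.09) at 7 h of H2O2. Of 8 genes of mitochondrial DNA transcription and maintenance 5 rose and 2 fell at 7 h of H2O2, with the helicase Twnk at 1.22 (SE 0.20). Among 9 nuclear regulators of mitochondrial genes, Myc rose by 3.69 (SE 0.10) at 2 h of H2O2, Esrra by 2.33 (SE 0.07) at 7 h of H2O2 and Ppargc1a by 3.38 (SE 0.43) at 7 h of KCl. These are single rises in 1 comparison each. The other regulators and any falls are not given here, so the values do not describe the list as a whole.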

How the data were processed

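The authors deposited expected counts and TPM per gene symbol for RNA and footprints, true or false read-in and downstream-transcript calls, and a read-in ratio per gene pair and RNA library. Per the submitters' processing notes, mm10, STAR, RSEM and Bowtie were used; the sources used here give neither their roles and versions nor the annotation, the read-in formula or any filter on footprint length. RNA libraries were poly(A)-selected, per the labels. The expected counts, whole in the deposited files, were tested with edgeR 4.0.16 in R 4.3.3 (quasi-likelihood F test, TMM, filterByExpr, Benjamini-Hochberg adjustment over all genes, threshold 0.05). Heat RNA (12747 genes), H2O2/KCl RNA (13256), footprints (10545) and translational efficiency (an interaction over 20 libraries, 10480 genes) were fitted separately, with all groups of an experiment sharing one estimate of the spread. No call was made from the members alone. The fits were tested on simulated data. Fold changes are log2 with the standard error of the fit.

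The members and the gene lists were chosen with earlier results of these data known, so their counts are descriptions. Named members are, per comparison, the 4 largest called rises and falls in RNA (3 in footprints and efficiency) with mean TPM of at least 5 (footprints, mean counts of at least 20) and groups that do not overlap; 12 members by role; the 5 highest and 3 lowest in the controls; members with read-in calls; members called one way in at least 5 of 6 comparisons; and the extremes of other lists. Others named were chosen after their values were seen. The mRNAs of the mitochondrial genome were found under upper-case names once the files were open. A further 12 columns, all of footprint files, carried names of no labelled sample and were not used.

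Alternatives were DESeq2 1.42.0, limma 3.58.1 on log2(TPM + 1) or log2(TPM + 0.1), RLE size factors, no filter, only the 2 groups compared, a replicate block, a minimum change of 0.5 and each library left out. Promoters came from RefSeq (GRCm38.p6); 9 members had no entry.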

Additional observations from a re-analysis of the deposited data

Results flagged for a closer look

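In 12 cases a member moved in opposite directions under related treatments against the same control, both changes were called, and edgeR's direct test of the difference between the treatments was called with a difference of at least 1 on the log2 scale. Such cases among all genes were not counted. The contrasts share their control, so the 2 changes are not independent. The direct test does not use the level of that control, though its spread was estimated over all groups of the experiment.

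Between the heat treatments, Mrps28 was 1.33 higher at 42 °C for 8 h than at 44 °C for 2 h, Mrpl54 1.13 and Mrpl33 1.00. Between the times of H2O2, Mrpl41 was 1.01 higher at 7 h than at 2 h. Between the times of KCl, Mrpl46 was 1.15 higher at 7 h.

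Between the agents at 7 h, RNA was higher with H2O2 than with KCl by 2.07 for Mrpl41, 1.60 for Mrpl15, 1.26 for Mrps24, 1.19 for Mrps26, 1.12 for Mrpl16, 1.07 for Mrps2 and 1.05 for Mrpl13. Mrpl16 had 26.5 and 26.3 CPM in the control, 40.0 and 41.8 with H2O2 and 20.8 and 16.8 with KCl, changes of 0.63 and -0.49. Mrps24 had 21.2 and 23.5 CPM in the control, 35.7 and 33.9 with H2O2 and 15.4 and 13.7 with KCl, changes of 0.64 and -0.61. For both genes the 3 groups do not overlap. No group was large enough to look for a single library that stood apart.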

How the results depend on the processing

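Of 155 alternative counts of called members, other than those with a library left out, 131 stayed within 1.5 times the reported count. Of 92 counts with 1 library left out, 57 did. Of 1399 alternatives for 108 named values, libraries left out among them, 1267 kept direction and call, 130 lost the call and 2 turned. The 2 were of Mrpl24 RNA at 7 h of KCl, not called on counts. It was -0.69 on log2(TPM + 1) and -0.70 on log2(TPM + 0.1), both called lower. Requiring a change of at least 0.5 left, in RNA, 10 members at 44 °C, 1 at 42 °C, 24 between the heat treatments, 6 (2 h) and 18 (7 h) with H2O2, 10 (2 h) and 34 (7 h) with KCl, 17 and 32 between the times of H2O2 and KCl, and 37 and 7 between the agents at 7 h and 2 h. The shares of all genes at that size are not given here, so these counts describe the members alone. TPM values with either pseudocount called 32 members at 42 °C against 55. For footprints at 7 h of H2O2, DESeq2 called 2 and a fit of only the 2 groups 11, against 6; at 2 h of KCl that fit called 0, against 2. For translational efficiency limma called 0 for H2O2 after 2 h, 0 after 7 h and 0 for KCl after 2 h, and DESeq2 7 at 2 h and 3 at 7 h of KCl. The causes were not tested.

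With the replicate number as a block, translational efficiency gave 6 members at 7 h of H2O2, 1 at 2 h of KCl and 2 at 7 h of KCl, and footprints kept 0, 6, 2 and 13. Only 2 numbers exist per group and the labels name nothing they share. Deviations of same-numbered libraries correlated at -0.0247 to 0.117 (heat RNA), -0.0531 to 0.0537 (H2O2/KCl RNA) and -0.384 to 0.417 (footprints) over pairs of groups.

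Leaving out 1 library gave, in RNA, 42 to 47 members at 44 °C, 38 to 50 at 42 °C, 45 to 52 between these, 25 to 36 and 34 to 37 at 2 h and 7 h of H2O2, 31 to 44 and 50 to 56 at 2 h and 7 h of KCl (31 without replicate 2 of KCl at 2 h, against 47), 31 to 45 and 51 to 55 between the times of H2O2 and KCl, and 51 to 56 and 20 to 27 between the agents at 7 h and 2 h. In footprints it gave 0 to 1 and 1 to 2 at 2 h and 7 h of H2O2, and 0 to 1 and 6 to 9 at 2 h and 7 h of KCl. In translational efficiency it gave 0 to 10 and 0 to 1 for H2O2, and 0 to 9 and 1 to 2 for KCl. A group then holding 1 library was taken to vary like the others. Footprint depth limits what can be called: a median of 110 counts per member and library.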
